A study of Mus musculus with 6 samples.

Results

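RNA-seq counts of 10 genes for extracellular nucleotide enzymes and purinergic receptors were followed in the epidermis of newborn mice, the keratinocyte layer that covers the skin. The genes were Entpd1, Entpd3, Nt5e, Ada, P2rx4, P2rx7, P2ry2, P2ry6, P2ry12 and Adora2b, found by name among the 54532 genes of the deposited count table. They were chosen with their difference between the groups already known, so that difference is given for them as a description. The labels give 3 libraries as Paxbp1 knockout and another 3 as wild type, all from epidermis that had been split from the dermis after an overnight Dispase II incubation. The deleted part of Paxbp1, any Cre driver, the strain and the number of animals behind a library are stated in no label.

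Cells release ATP and UTP when stressed or injured, and these nucleotides act on P2X receptors, which are ATP-gated ion channels, and on P2Y receptors, which couple to G proteins. Enzymes on the cell surface then strip phosphates from ATP to give ADP, AMP and finally adenosine, which has its own G protein-coupled receptors, and adenosine deaminase ends that signal by making inosine. In skin, keratinocytes release ATP, and in mice the enzyme encoded by Entpd1, also called CD39, is known from Langerhans cells, regulatory T cells and blood vessels.

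Library totals ran from 16643839 to 17816327 counts in the libraries labelled knockout, and from 16315317 to 17802056 in the wild type. Paxbp1 itself had 2370, 1127 and 1125 counts in the libraries labelled knockout and 2007, 1159 and 1467 in the wild type (log2 fold change 0.10 ± 0.29 SE, edgeR adjusted p = 0.783). The total over the gene gives no check of the genotypes, and all directions below compare libraries as they were labelled. Several marker lists of other cell types differed between the groups, while the T cell sums of the groups overlapped. The counts of markers called stand beside 28.7% higher and 25.1% lower over all 16471 genes tested. All 10 macrophage markers rose, with summed levels of 9766 to 18335 CPM (counts relative to the scaled library total) in the libraries labelled knockout and 169 to 183 CPM in the wild type. Mrc1 and Cd163 were the most abundant of these, and the wild type libraries together held 1 count of Cd163. All 6 fibroblast markers, led by Col1a1 and Col3a1, rose (3515 to 9150 CPM summed, against 249 to 259 CPM). All 3 neutrophil markers tested of 6, led by Csf3r and Mmp8, rose (891 to 1687 CPM, against 1.53 to 2.78 CPM), while Ly6g, Mpo and Elane were too low to test and Ly6g had no wild type count. The platelet list was higher for 3 of 4 tested (1002 to 1503 CPM, against 5.84 to 8.73 CPM), led by Pf4 and Ppbp. Pf4 alone had 928 to 1442 CPM in the libraries labelled knockout. Gp1ba was not called, at 0.533 ± 0.291 CPM in the libraries labelled knockout and 1.04 ± 0.125 CPM in the wild type. Gp9 was too low to test, with 46 counts over the libraries labelled knockout and 0 over the wild type. The endothelial list was higher for all 3 tested of 5 (181 to 353 CPM, against 0.955 to 2.84 CPM), led by Pecam1 and Kdr. Pecam1 alone had 166 to 334 CPM in the libraries labelled knockout. Tek and Emcn were too low to test. Tek had 22 counts over the libraries labelled knockout and 24 over the wild type, and Emcn had 5 and 0. Of 8 keratinocyte markers, which define the tissue, 7 fell and Dsg3 was not called (4379 to 11618 CPM summed, against 80156 to 134093 CPM), with Krt1 and Krt10 the most abundant. Of the Langerhans cell list Cd74 and Mfge8 rose and Epcam fell (205 to 334 CPM summed, against 163 to 196 CPM), and Cd207, its defining marker, had 1 to 5 counts in each library labelled knockout and none in the wild type. T cell markers, led by Cd3g and Cd2, summed to 7.49 to 13 CPM, against 7.59 to 24.2 CPM, with 1 higher and 2 lower of 5 tested. Mast cell markers, led by Kit and Cma1, summed to 35.7 to 39.7 CPM, against 39.8 to 53.4 CPM, with 3 higher and 1 lower of 4 tested, and Fcer1a had no wild type count. Schwann cell markers, led by Mbp and Sox10, summed to 84.2 to 96.3 CPM, against 47.6 to 63.7 CPM, with 2 of 4 higher. Some called markers passed the filter on low counts only through the group where they are high. Through the libraries labelled knockout these were Cd163, Pdgfra, Lum, Cxcr2, Mmp8, Pf4, Ppbp, Cdh5, Kdr, Cd2, Cpa3, Tpsb2 and Cma1. Through the wild type it was Cd3e. The filter thus picked these markers for a difference, so their calls are given as a description only.

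**Figure D1:**
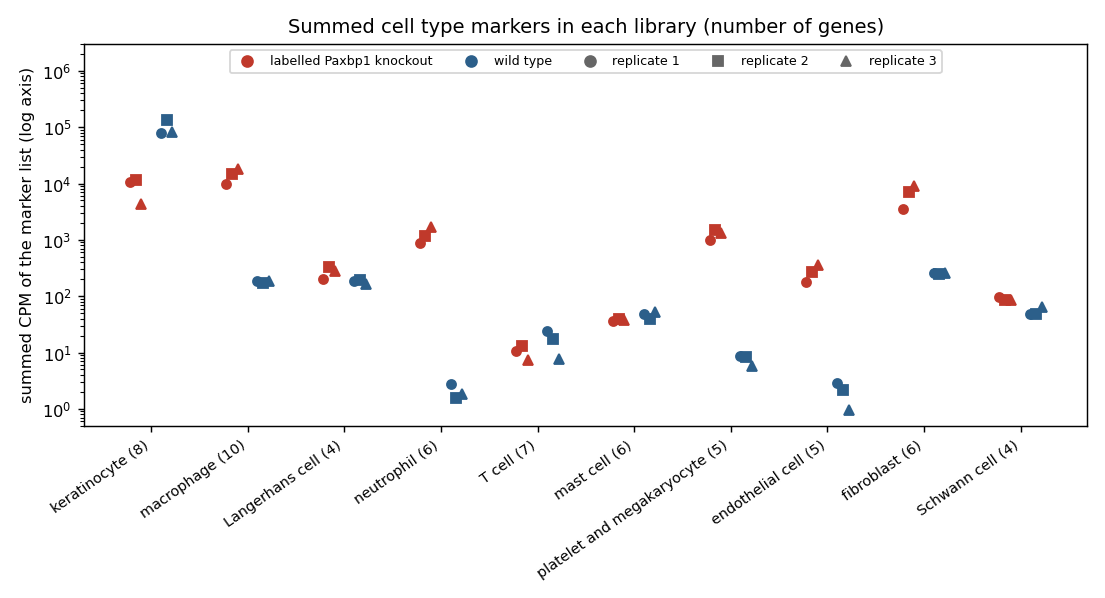
Summed CPM of each cell type marker list (log axis, number of genes in brackets) in the 3 libraries labelled Paxbp1 knockout and the 3 wild type libraries, with a symbol for each replicate. The macrophage lists of the libraries labelled knockout sum to 9766 to 18335 CPM, against 169 to 183 CPM in the wild type, and the keratinocyte lists lie the other way round.

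Each of the 10 genes was called higher in the libraries labelled knockout, at an adjusted p under 0.05 by edgeR over 16471 genes, of which 28.7% were called higher and 25.1% lower. For each of them the lowest library labelled knockout lay above the highest wild type library, which held for 31.9% of all genes, and the reverse for 30.4%. Their log2 fold changes ran from 2.53 for Adora2b to 6.71 for Entpd3, with a median of 4.22, beside a median of -0.029 over all genes tested. All 10 were at least 4-fold higher, as were 15.3% of all genes. The genes passed the filter on low counts in each group on its own. In a bulk sample, more cells of a type and more RNA per cell cannot be told apart, and the part that the cell types above have in these rises was not tested.

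**Figure D2:**
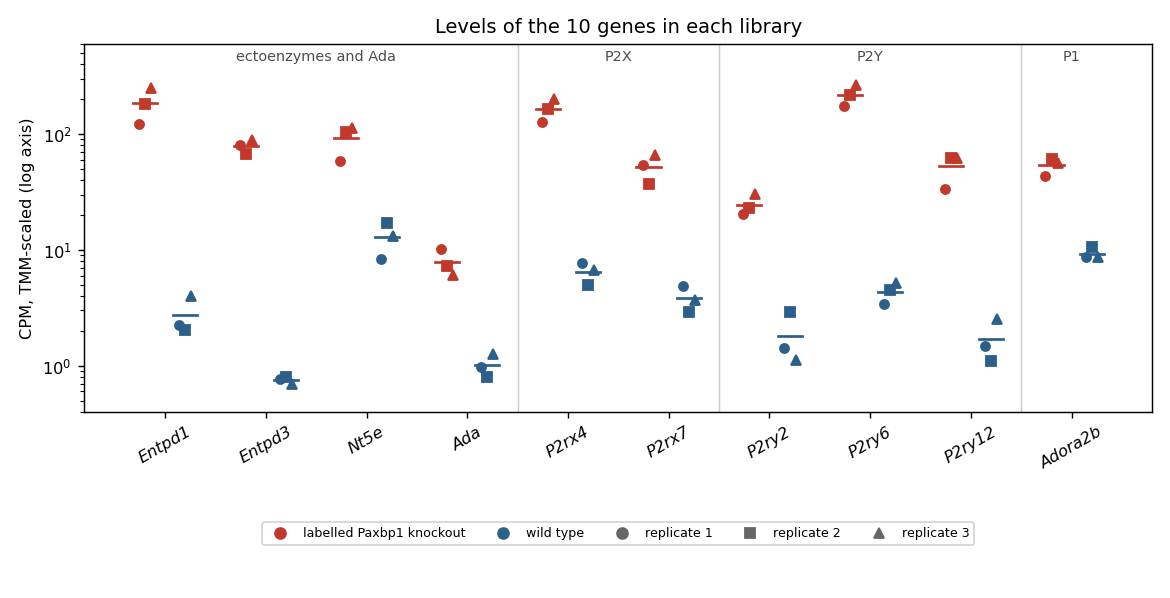
CPM (log axis) of the 10 genes in each library labelled Paxbp1 knockout and each wild type library, grouped by role, with bars at the group means (n = 3 each). No gene has overlapping groups, and the smallest gap is that of Nt5e, whose lowest library labelled knockout has 58.7 CPM and whose highest wild type library has 17.2 CPM.

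The enzyme genes that act first on ATP, Entpd3 and Entpd1, rose strongly. The 95% intervals of the log2 fold change of Entpd3 (6.11 to 7.31) and Entpd1 (5.20 to 6.92) both overlapped that of P2ry6 (5.01 to 6.29). That of Entpd1 also overlapped those of P2rx4 and P2ry12. P2ry6 ranked above both enzyme genes on the log2(FPKM + 1) scale (4.93, against 4.47 for Entpd1 and 4.19 for Entpd3). Entpd1 (ENSMUSG00000048120, chr19:40612366-40741602, plus strand, mm10) encodes the ectoenzyme that takes ATP and ADP to AMP. It had 121, 183 and 248 CPM in the libraries labelled knockout and 2.24, 2.02 and 3.98 CPM in the wild type (log2 fold change 6.06 ± 0.39 SE). The lowest library labelled knockout was 30.5-fold above the highest wild type library, and the spread within each group was wide, with a coefficient of variation of 34.5% in the libraries labelled knockout and 39.2% in the wild type. Entpd3 (ENSMUSG00000041608, chr9:120539818-120568327, plus strand) encodes a related surface enzyme that also hydrolyses ATP and ADP. It had 80.2, 67.8 and 89.6 CPM in the libraries labelled knockout and 0.764, 0.795 and 0.690 CPM in the wild type (log2 fold change 6.71 ± 0.27 SE, a 105-fold difference with a 95% interval of 69.3 to 159). Its wild type values rest on 13 to 14 counts per library, and its replicates were closer than those of Entpd1, with coefficients of variation of 13.8% in the libraries labelled knockout and 7.20% in the wild type. Processed pseudogenes Gm8783 and Gm16027 lie inside Entpd1, with 15 and 5 counts over the libraries labelled knockout and 2 and 0 over the wild type.

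The windows around annotated start sites of 4 of the genes are shown as examples of those that held any of 3 short letter patterns, which are in capitals. These are TGANTCA, the AP-1 pattern, GAGGAA, an ETS pattern found in PU.1 sites, and CACGTG, an E-box, searched on both strands from 250 bases before to 50 bases after the start. The sequences are from RefSeq (GRCm38.p6), written 5′ to 3′ on the gene's strand. The window of the downstream Entpd1 start is chr19:40659520-40659819 (plus strand), with GAGGAA at 2 places, that of Entpd3 is chr9:120539568-120539867 (plus strand), with TGANTCA 247 and CACGTG 151 bases before the start, and that of the first P2rx7 start is chr5:122643677-122643976 (plus strand), with TGANTCA 249 bases before the start and GAGGAA after it. The window of P2ry12 is chr3:59262936-59263235 (minus strand), with CACGTG 228 bases before the start.
Entpd1: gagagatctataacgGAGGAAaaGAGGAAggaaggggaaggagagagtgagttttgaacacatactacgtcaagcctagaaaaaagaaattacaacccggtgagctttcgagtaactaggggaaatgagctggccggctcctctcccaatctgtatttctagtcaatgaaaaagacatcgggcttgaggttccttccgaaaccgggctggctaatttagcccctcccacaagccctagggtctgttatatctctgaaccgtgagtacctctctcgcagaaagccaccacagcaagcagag
Entpd3: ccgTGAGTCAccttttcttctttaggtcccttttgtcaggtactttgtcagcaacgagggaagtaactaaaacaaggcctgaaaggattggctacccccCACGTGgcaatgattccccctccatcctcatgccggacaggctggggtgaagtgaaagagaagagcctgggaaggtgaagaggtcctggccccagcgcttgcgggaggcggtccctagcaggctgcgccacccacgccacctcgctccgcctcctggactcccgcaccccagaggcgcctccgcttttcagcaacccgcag
P2rx7: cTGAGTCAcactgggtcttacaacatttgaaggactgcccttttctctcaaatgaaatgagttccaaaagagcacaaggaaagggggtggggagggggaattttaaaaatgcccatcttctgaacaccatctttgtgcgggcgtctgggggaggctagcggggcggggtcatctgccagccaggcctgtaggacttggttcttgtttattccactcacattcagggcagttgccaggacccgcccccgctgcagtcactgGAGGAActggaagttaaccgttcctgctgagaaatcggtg
P2ry12: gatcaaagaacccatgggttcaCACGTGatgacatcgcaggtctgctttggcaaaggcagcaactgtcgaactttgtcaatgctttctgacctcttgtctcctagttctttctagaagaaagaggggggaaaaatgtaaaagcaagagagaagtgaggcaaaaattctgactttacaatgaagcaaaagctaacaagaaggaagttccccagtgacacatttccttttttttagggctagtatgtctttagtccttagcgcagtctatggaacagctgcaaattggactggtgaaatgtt
RefSeq windows were matched for 9 of the 10 genes, 12 windows in all, since Entpd1, P2rx7 and P2ry2 have 2 each. TGANTCA was in 2 of the 12 and in 7.81% of all 32851 windows, GAGGAA in 3 and in 28.3%, and CACGTG in 4 and in 7.15%. The GAGGAA windows are that of Entpd1 and both of P2rx7. The CACGTG windows are those of Entpd3 and P2ry12 and the overlapping windows of P2ry2, which hold the same letters. The pattern ACGTG, the core of hypoxia response elements, was in the same number of windows, each time inside CACGTG, and in 19.6% of all windows. CCAAT was in 6 windows (37.4% of all), GGGCGG in 7 (35.7%) and TATAAA in 0 (13.6%). These matches describe the letters only.

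The next enzymes of the chain rose less. Nt5e (ENSMUSG00000032420, chr9:88327197-88372092, plus strand) encodes CD73, which makes adenosine from AMP. It had 58.7, 105 and 113 CPM in the libraries labelled knockout and 8.40, 17.2 and 13.2 CPM in the wild type (log2 fold change 2.83 ± 0.33 SE). Replicate 1 was the lowest library in either group, and the closest libraries of the groups were 3.40-fold apart. Ada (ENSMUSG00000017697, chr2:163726584-163750239, minus strand) encodes adenosine deaminase. It had 10.2, 7.32 and 6.13 CPM in the libraries labelled knockout and 0.982, 0.795 and 1.27 CPM in the wild type (log2 fold change 2.94 ± 0.38 SE). It was the only gene of the 10 that was highest in replicate 1 of the libraries labelled knockout, and the wild type values rest on 13 to 24 counts. The 95% intervals of the fold were 4.28 to 11.8 for Nt5e and 4.31 to 13.7 for Ada, both below the 36.8 to 121 of Entpd1.

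Both ATP-gated channel genes rose, and they are neighbours. P2rx4 (ENSMUSG00000029470, chr5:122707544-122729738, plus strand) encodes a channel that in macrophages is found in lysosomes as well as at the surface. It had 127, 165 and 202 CPM in the libraries labelled knockout and 7.64, 5.01 and 6.69 CPM in the wild type (log2 fold change 4.67 ± 0.28 SE). P2rx7 (ENSMUSG00000029468, chr5:122643911-122691432, plus strand) encodes the channel that opens at high ATP and is known for triggering interleukin-1 beta release from macrophages. It had 53.9, 36.9 and 66.5 CPM in the libraries labelled knockout and 4.91, 2.93 and 3.66 CPM in the wild type (log2 fold change 3.77 ± 0.31 SE). The groups lay apart for both, by 16.7-fold between the closest libraries for P2rx4 and 7.50-fold for P2rx7. The genes lie 16111 bases apart on the same strand, and Gm10064, the gene of the table between them, had no count in any library. Of the 50-base stretches of their GENCODE transcripts, 1.63% of P2rx4 and 1.17% of P2rx7 also occurred in transcripts of other genes.

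The P2Y receptor genes rose as well, P2ry6 to the highest FPKM level of the 10 in the libraries labelled knockout. P2ry6 (ENSMUSG00000048779, chr7:100937630-100974649, minus strand) encodes the UDP receptor, known from microglia as a trigger of phagocytosis. It had 174, 219 and 265 CPM in the libraries labelled knockout and 3.44, 4.52 and 5.15 CPM in the wild type (log2 fold change 5.65 ± 0.29 SE). P2ry2 (ENSMUSG00000032860, chr7:100996568-101012866, minus strand), whose product binds ATP and UTP and is known from keratinocytes, had 20.5, 22.8 and 30.5 CPM in the libraries labelled knockout and 1.42, 2.93 and 1.11 CPM in the wild type (log2 fold change 3.76 ± 0.38 SE). The 2 genes are 21918 bases apart on the same strand with no gene of the table between them, and the fold intervals, 32.1 to 78.0 for P2ry6 and 7.62 to 24.2 for P2ry2, did not overlap. P2ry12 (ENSMUSG00000036353, chr3:59216272-59262871, minus strand) encodes the ADP receptor of platelets and microglia. It had 33.7, 62.3 and 61.6 CPM in the libraries labelled knockout and 1.47, 1.10 and 2.55 CPM in the wild type (log2 fold change 4.93 ± 0.38 SE). The lowest library labelled knockout was 13.2-fold above the highest wild type library. P2ry12 lies inside Med12l on the other strand, which also rose, to 36.6 ± 13.5 CPM in the libraries labelled knockout against 1.90 ± 0.764 CPM in the wild type (SD, n = 3 each; log2 fold change 4.26). Whether the counting used strand is not stated, so reads of the 2 genes cannot be told apart where they overlap, and 9 of the 2546 exon bases of P2ry12 overlap exons of Med12l in GENCODE M21 (GRCm38).

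Adora2b had the highest wild type FPKM and the smallest log2 fold change of the 10. Its product (ENSMUSG00000018500, chr11:62248984-62266453, plus strand) binds adenosine with low affinity and raises cyclic AMP. Adora2b had 43.7, 60.6 and 56.5 CPM in the libraries labelled knockout and 8.62, 10.6 and 8.70 CPM in the wild type (log2 fold change 2.53 ± 0.23 SE, a 5.76-fold difference with a 95% interval of 4.07 to 8.16). The closest libraries of the groups were 4.13-fold apart. The fold interval of Adora2b overlapped those of Nt5e, Ada and P2ry2, and these genes lay below it on the log2(FPKM + 1) scale.

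The order of the genes changed between the groups when levels were taken per length, as deposited FPKM (fragments per length of transcript and depth of library). In the libraries labelled knockout P2ry6 was highest, at 75.5 ± 16.3 FPKM, and its range did not overlap that of Entpd1, at 32.9 ± 11.6 FPKM. Adora2b (28.9 ± 4.80), P2rx4 (23.3 ± 5.49), Entpd3 (21.0 ± 3.07) and P2ry12 (20.5 ± 6.43) followed in FPKM, each with a range that overlapped that of the gene before it. Nt5e (10.6 ± 3.42), P2rx7 (8.74 ± 2.55) and P2ry2 (6.24 ± 1.39) came next, again with overlapping neighbours, and Ada was lowest at 3.91 ± 1.01 FPKM, apart from P2ry2. In the wild type Adora2b stood alone at the top with 4.92 ± 0.646 FPKM, followed by P2ry6 (1.48 ± 0.309) and Nt5e (1.47 ± 0.522). From P2ry6 down to P2ry2 (0.454 ± 0.248), neighbours in the order overlapped, and Entpd3 stood alone at the bottom with 0.195 ± 0.0145 FPKM (SD, n = 3 each throughout). Entpd3 thus had the lowest wild type level and the fifth highest level in the libraries labelled knockout.

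Within the libraries labelled knockout, 7 of the 10 genes were highest in replicate 3 and 7 were lowest in replicate 1. Only Entpd1, Nt5e, P2rx4, P2ry2 and P2ry6 were both lowest in replicate 1 and highest in replicate 3. The summed macrophage, fibroblast, neutrophil and endothelial markers had that order too. The keratinocyte, T cell and Schwann cell sums were lowest in replicate 3. The platelet, Langerhans cell, keratinocyte, T cell and mast cell sums were highest in replicate 2, as were P2ry12 and Adora2b. Entpd3 and P2rx7 were lowest in replicate 2, and Ada was highest in replicate 1 and lowest in replicate 3. With 3 libraries these orders are given as values without a test.

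Family shares were computed for the 8 of the 10 genes that belong to the Entpd, P2X, P2Y or adenosine receptor families, and they differed between the groups by more than their spread for 6 of these 8 and not for P2rx7 and P2ry2. Of the 8 Entpd genes, Entpd4 had no count in any library. Entpd8 had 4 counts over the libraries labelled knockout and 0 over the wild type. Summed FPKM of the 8 genes was 52.2 to 80.6 in the libraries labelled knockout and 9.09 to 11.5 in the wild type. Entpd1 held 50.2% ± 7.76 of that sum in the libraries labelled knockout and 4.86% ± 2.47 in the wild type, and Entpd3 held 33.3% ± 6.31 in the libraries labelled knockout and 1.91% ± 0.0827 in the wild type. These genes thus made up most of the sum in the libraries labelled knockout and little of it in the wild type. Entpd5, whose product acts in the secretory pathway, held 5.95% ± 0.585 in the libraries labelled knockout and 31.2% ± 0.383 in the wild type. Entpd6, whose product is found in the Golgi, held 5.81% ± 1.40 in the libraries labelled knockout and 31.1% ± 4.91 in the wild type. The levels of Entpd5 and Entpd6 were not called (log2 fold change 0.22 and 0.16, edgeR adjusted p = 0.421 and 0.587). Entpd5 had 22.9 ± 3.15 CPM in the libraries labelled knockout and 19.7 ± 2.02 CPM in the wild type. For Entpd6 these were 17.3 ± 0.657 CPM and 15.5 ± 2.91 CPM. Entpd2, whose product acts at the cell surface, held 0.493% ± 0.214 in the libraries labelled knockout and 25.7% ± 5.10 in the wild type. Among the 7 P2X genes P2rx4 made up 67.3% ± 5.27 in the libraries labelled knockout and 33.0% ± 6.19 in the wild type. P2rx7 held like shares in the libraries labelled knockout (25.4% ± 5.92) and the wild type (22.8% ± 2.83), which differed by less than the spread between libraries. P2rx3, a channel known from sensory neurons, had 0.122% ± 0.212 of the P2X sum in the libraries labelled knockout and 33.0% ± 9.17 in the wild type.

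Among 7 nucleotide-binding P2Y genes P2ry6 made up 62.8% ± 2.49 of the summed FPKM in the libraries labelled knockout and 14.6% ± 3.37 in the wild type. P2ry12 held 16.8% ± 2.56 in the libraries labelled knockout and 6.50% ± 3.11 in the wild type, and P2ry2 held 5.20% ± 0.532 in the libraries labelled knockout and 4.43% ± 2.30 in the wild type, which overlapped. P2ry1, an ADP receptor gene, held 2.44% ± 0.549 in the libraries labelled knockout and 48.8% ± 2.38 in the wild type. Adora2b made up most of the 4 adenosine receptor genes in each group, with 80.4% ± 1.52 in the libraries labelled knockout and 97.8% ± 1.09 in the wild type, and Adora3 held 17.2% ± 1.32 in the libraries labelled knockout and 1.55% ± 0.846 in the wild type (SD, n = 3 each).

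**Figure D3:**
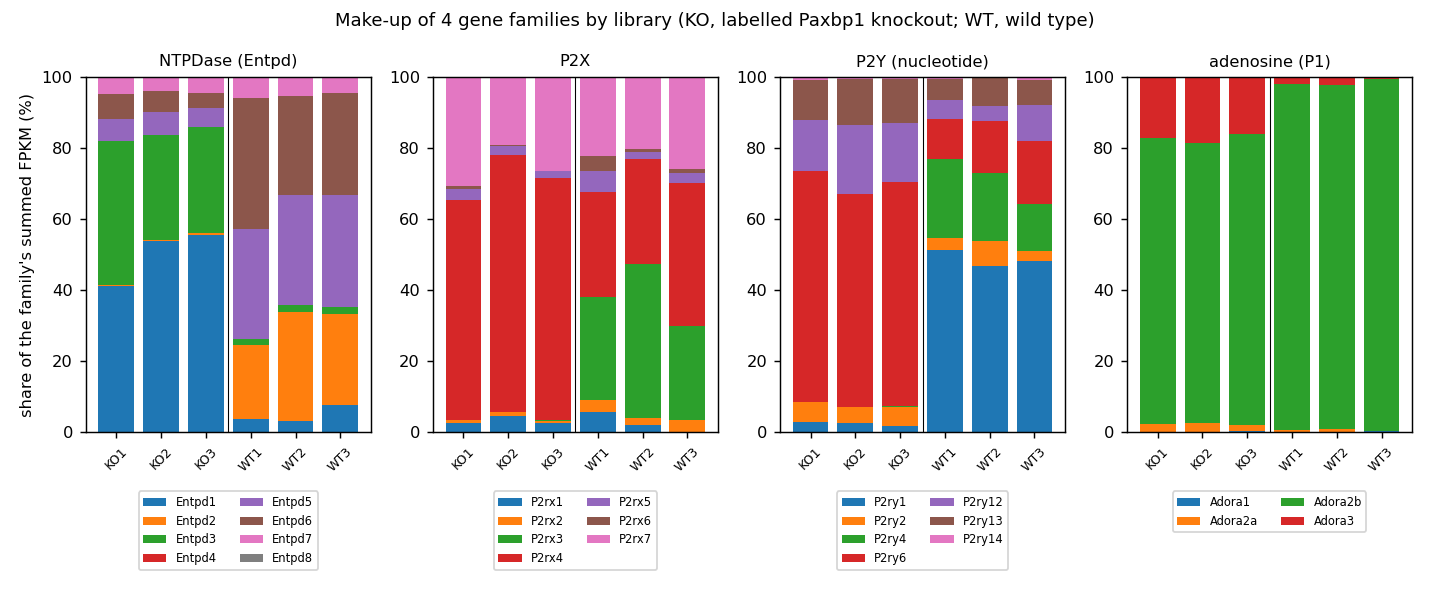
Share of each gene in the summed FPKM of the Entpd, P2X, P2Y and adenosine receptor families, with 1 stacked bar per library (KO, labelled Paxbp1 knockout, left of WT, wild type). Entpd1 and Entpd3, P2rx4 and P2ry6 fill most of the bars of their families in the libraries labelled knockout, while Entpd2, Entpd5, Entpd6, P2rx3 and P2ry1 fill much of the wild type bars.

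Other genes of the same pathway moved in either direction. Of 39 further genes 30 were tested, and 19 of these passed the filter on low counts in each group on its own. Of the 19, 9 rose, 3 fell and 7 were not called, beside 28.7% higher and 25.1% lower over all genes. The other 11 passed only through the group where they are high. The filter thus picked them for a difference, so their levels and calls are given as a description only. These 11 genes are P2rx1, P2rx2, P2rx5, P2ry14, Adora2a, Adora3 and Slc28a2, higher in the libraries labelled knockout, and Entpd2, P2rx3, P2ry4 and Slc29a4, higher in the wild type.

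Among the ectoenzymes, 3 of 8 tested rose, each passing the filter in both groups, beside 28.7% higher over all genes. The 1 that fell, Entpd2, passed the filter only through the wild type. Enpp2, which encodes autotaxin and whose main product is lysophosphatidic acid, had 141 ± 66.3 CPM in the libraries labelled knockout and 3.15 ± 1.16 CPM in the wild type (log2 fold change 5.47 ± 0.43 SE, edgeR adjusted p = 1.89e-06). Enpp1, which makes AMP and pyrophosphate from ATP, had 53.3 ± 10.7 CPM in the libraries labelled knockout and 2.03 ± 1.13 CPM in the wild type (log2 fold change 4.70 ± 0.38 SE, edgeR adjusted p = 2.30e-06). Entpd7, an intracellular relative, rose by less (log2 fold change 2.30 ± 0.27 SE). Entpd2, whose product prefers ATP to ADP, was the gene that fell, to 0.722 ± 0.464 CPM in the libraries labelled knockout against 5.77 ± 1.63 CPM in the wild type (log2 fold change -2.99 ± 0.50 SE, or -3.63 without replicate 3 of the libraries labelled knockout), and it shares 28.8% of its exon bases with Npdc1. The most abundant gene that was not called was Acpp, a phosphatase that can make adenosine from AMP, at 70.9 ± 35.6 CPM in the libraries labelled knockout and 64.0 ± 20.6 CPM in the wild type (log2 fold change 0.15).

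Downstream of adenosine, Pnp, whose product splits inosine, had 146 ± 36.3 CPM in the libraries labelled knockout and 30.2 ± 4.77 CPM in the wild type (log2 fold change 2.27 ± 0.25 SE, edgeR adjusted p = 2.11e-05). Of its 3979 exon bases, 718 are shared with Gm49342. Adk, whose product returns adenosine to AMP, fell (log2 fold change -1.15 ± 0.26 SE), as did Dpp4 (-1.43 ± 0.23), whose product binds adenosine deaminase in humans. Of the 6 nucleoside transporter genes tested, Slc29a1, Slc29a2 and Slc29a3 rose and Slc28a3 was not called, beside 28.7% higher over all genes. Slc28a2, called higher, passed the filter only through the libraries labelled knockout. Slc29a4, called lower, passed only through the wild type. Slc28a2, a sodium-coupled transporter gene, had 190, 185 and 210 counts in the libraries labelled knockout and 4, 4 and 0 counts in the wild type (log2 fold change 6.24 ± 0.57 SE). Slc29a1, the main equilibrative transporter gene, rose by 2.43 ± 0.26 on the log2 scale. Slc29a4 was called lower (edgeR adjusted p = 0.0455), a call lost in 9 of 17 other settings, including the replicate block (adjusted p = 0.0566). Slc17a9, which encodes a transporter that loads ATP into vesicles, rose (2.84 ± 0.45), and Panx1, which encodes an ATP release channel, was not called, at 22.5 ± 5.02 CPM in the libraries labelled knockout and 32.4 ± 2.86 CPM in the wild type (log2 fold change -0.53, edgeR adjusted p = 0.0675), though it was called lower with the replicate block (edgeR adjusted p = 0.042), with library-size or upper-quartile scaling (0.0203 and 0.0169) and without replicate 2 of the libraries labelled knockout (0.0224).

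The receptor genes outside the 10 split by gene. P2ry13 and P2ry14, which lie with P2ry12 inside Med12l on chromosome 3, rose with it. P2ry13, an ADP receptor gene, had 26.6, 40.8 and 44.7 CPM in the libraries labelled knockout and 1.58, 2.14 and 1.80 CPM in the wild type (log2 fold change 4.34 ± 0.30 SE, edgeR adjusted p = 7.84e-07). P2ry14, a UDP-glucose receptor gene, had 7.42, 9.28 and 10.5 CPM in the libraries labelled knockout and 0.764, 0.245 and 0.796 CPM in the wild type (log2 fold change 3.88 ± 0.44 SE). P2ry1, farther along the chromosome, fell to 12.3 ± 0.940 CPM in the libraries labelled knockout against 21.8 ± 1.57 CPM in the wild type (log2 fold change -0.83 ± 0.21 SE, edgeR adjusted p = 0.00654), and 23.1% of its exon bases overlap Gm37035 on the other strand. P2ry4, a UTP receptor gene, had 0.170, 0 and 0.310 CPM in the libraries labelled knockout and 10.5, 8.93 and 5.84 CPM in the wild type (log2 fold change -5.64 ± 0.63 SE, or -6.43 without replicate 3 of the libraries labelled knockout).

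Of the other P2X genes tested, P2rx1 (log2 fold change 3.67 ± 0.82), P2rx5 (2.92 ± 0.61) and P2rx2 (1.78 ± 0.62) rose, with 12 to 15 counts each over the wild type libraries, and without replicate 1 of the wild type P2rx1 was at 5.49 and P2rx5 at 3.86. P2rx3 fell (log2 fold change -4.09 ± 0.92 SE), to 0, 0 and 7 counts in the libraries labelled knockout against 55, 48 and 33 in the wild type. Its value thus rests on replicate 3 of the libraries labelled knockout, without which the fitted value was -8.47, a figure that depends on the prior count. The P2rx2 call was lost in 9 of the 16 other settings that tested it, including the replicate block (edgeR adjusted p = 0.0632). Adora3 had 23.3 ± 5.06 CPM in the libraries labelled knockout and 0.308 ± 0.192 CPM in the wild type (log2 fold change 6.24 ± 0.43 SE), with 20.9% of its exon bases shared with Tmigd3. Adora2a, the high-affinity receptor gene that leukocytes carry, had 122 counts over the libraries labelled knockout and 4 over the wild type (log2 fold change 4.93 ± 0.73 SE). Beside these calls stand the macrophage and keratinocyte marker sums given above, whose part was not tested.

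**Figure D4:**
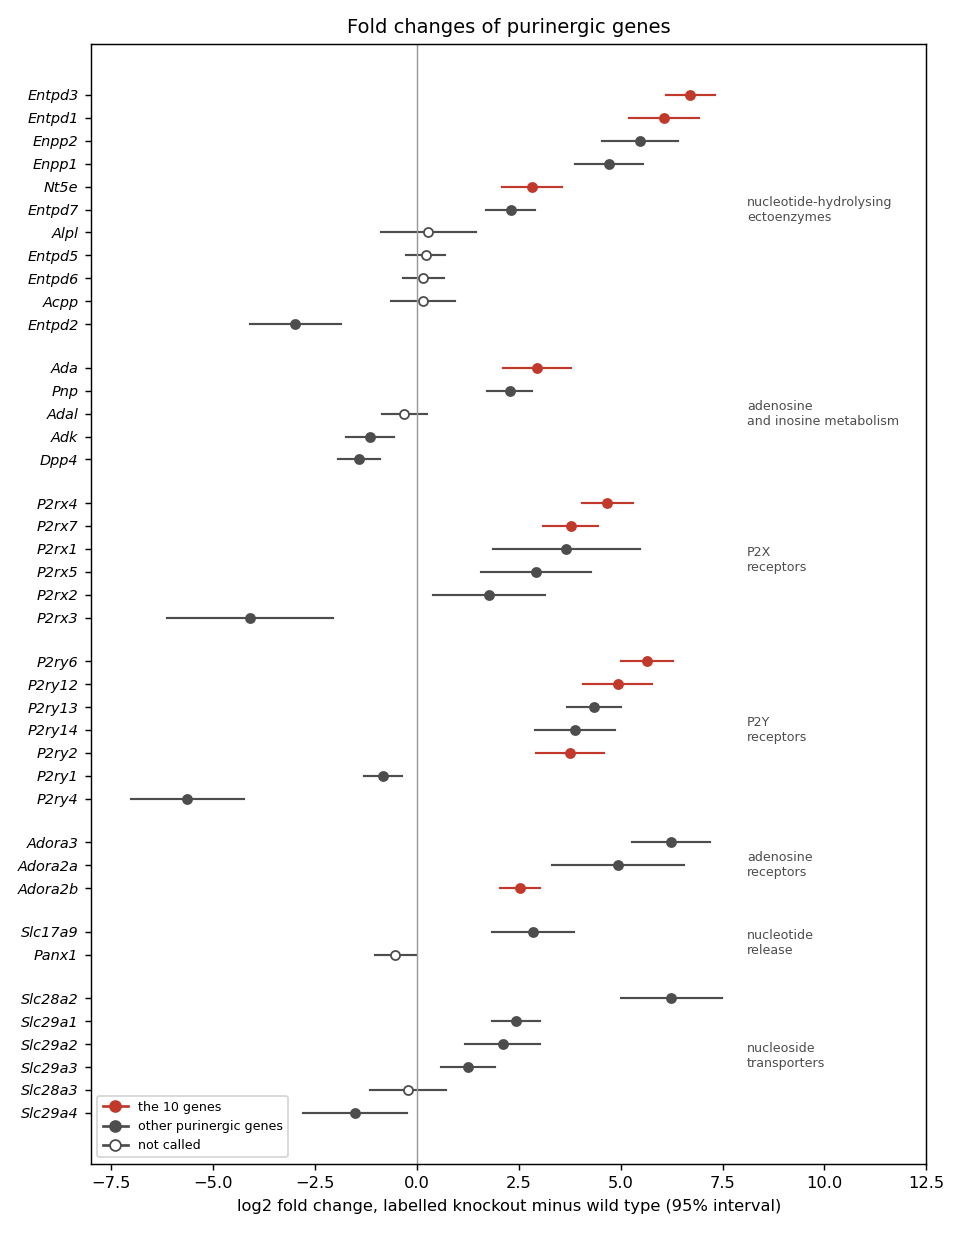
Log2 fold changes (libraries labelled Paxbp1 knockout minus wild type) with 95% intervals of the 10 genes and of the 30 other purinergic genes tested, grouped by role. Filled points were called at an edgeR adjusted p under 0.05. All 10 genes lie between 2.53 and 6.71, and the other genes spread from -5.64 for P2ry4 to 6.24 for Slc28a2 and for Adora3.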

How the data were processed

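Epidermis RNA of the 3 knockout-labelled and 3 wild type libraries was analysed from the authors' deposited table of whole-number counts per gene, with the deposited FPKM table used for levels between genes. Alignment with HISAT2 2.0.5 to mm10 and counting with featureCounts 1.5.0-p3 are listed, per the submitters' processing notes. Settings, strand and annotation release are stated in none of the sources used here. In each library the FPKM values are the counts over the gene length times 1 factor, which was 0.854 to 1.12 of that from the total count.

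edgeR 4.0.16 (R 4.3.3) was run after filterByExpr (at least 10 counts in a group's worth of libraries, 15 in total), with TMM scaling, robust quasi-likelihood fits and genotype as the only term, with Benjamini-Hochberg adjustment over 16471 genes and a threshold of 0.05. CPM values carry the TMM factors. The SE is the log2 fold change over the root of F. The test was checked on simulated counts.

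The 10 genes, the other purinergic genes and the marker lists were chosen with earlier results of these data known. The rule for naming took the 10 genes, the 12 other called purinergic genes with the smallest adjusted p, the most abundant one not called, and the 2 most abundant markers of each list. Other genes, Panx1 among them, and the letter patterns were named after their values were seen. The labels do not tie libraries to animals, so p-values measure the spread between libraries. Same-numbered libraries deviated together from their group means (r = 0.207, 0.304 and 0.162 for numbers 1 to 3 across genes, against -0.286 to 0.0676 for other pairs), so a replicate block was fitted as an alternative. Other alternatives were 3 scalings, 2 filters, DESeq2 1.42.0, limma-voom (limma 3.58.1), limma-trend on log2 FPKM with pseudocounts of 1 or 0.1, each library left out, and both libraries numbered 1 left out. Libraries of a group differed beyond sampling noise (chi-square over degrees of freedom at least 32.9), so none was the same library sequenced again. That cannot tell whether libraries of a group came from the same animal or pool.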

Additional observations from a re-analysis of the deposited data

How the results depend on the processing

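All 10 genes were higher, and 0 lower, under each of the 17 alternatives run, the replicate block and each left-out library included. Over the count-based alternatives their log2 fold changes ran from 2.33 for Adora2b to 6.82 for Entpd3, and the largest adjusted p of any alternative was 0.00121, for Ada. On the log2(FPKM + 1) scale, which understates low genes, P2ry6 (4.93) and Entpd1 (4.47) lay above Entpd3 (4.19), and Ada (1.70), Nt5e (2.21) and P2ry2 (2.31) lay below Adora2b (2.33). The median of all genes was -0.18 with library-size scaling and -0.22 with upper-quartile scaling. Of the other purinergic genes 15 to 17 were higher and 6 to 8 lower over the alternatives, with 15 and 7 under the replicate block. These counts include genes that passed the main filter only through the group where they are high. In the main test such genes were 7 of the 16 higher and 4 of the 7 lower. Under the replicate block the calls of P2rx2 and Slc29a4 were lost, Panx1 was called lower (log2 fold change -0.55, edgeR adjusted p = 0.042), and the calls of all other purinergic genes tested, the 10 included, were the same. The P2rx2 and Slc29a4 calls were also lost on leaving out replicate 2 or 3 of the libraries labelled knockout or any wild type library (edgeR adjusted p 0.0532 to 0.15 for P2rx2 and 0.0952 to 0.147 for Slc29a4). Over all genes tested 4151 to 5321 were higher and 3388 to 5147 lower, with 5089 and 4792 under the replicate block. On summed CPM in place of FPKM, which does not adjust for length, 9 of 16 family shares moved by more than the spread between libraries, among them the adenosine receptors, where Adora2b held 67.4% in the libraries labelled knockout and 95.6% in the wild type, and the P2X genes, where P2rx4 held 73.5% in the libraries labelled knockout and 47.0% in the wild type. Enpp1 was at 5.40 without both libraries numbered 1. Acpp, uncalled throughout, changed sign to -0.033 with upper-quartile scaling, to -0.29 without both libraries numbered 1, and ran from -0.33 to 0.40 on leaving out single libraries. Panx1 was called lower with library-size (-0.70) and upper-quartile scaling (-0.72) and, on leaving out single libraries, ran from -0.72 to -0.42. Depth limits Entpd3, Ada, P2ry2 and P2ry12, whose wild type libraries held 13 to 48 counts.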
